A study of Mus musculus with 3 samples.

Results

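The skeletal-lineage miRNAs described here are 9 mature miRNAs of the miR-140, miR-196, miR-204, miR-211 and miR-31 hairpins: mmu-miR-140-5p, mmu-miR-140-3p, mmu-miR-196a-5p, mmu-miR-196b-5p, mmu-miR-204-5p, mmu-miR-211-5p, mmu-miR-211-3p, mmu-miR-31-5p and mmu-miR-31-3p, written below without the prefix for mouse. They were taken by name from the 1881 mouse miRNAs on the array, and they hold 22 of its 4415 probes. Exosomes, small vesicles that cells shed into their medium, were measured in 3 groups of 1 array each. H-Exo came from mesenchymal stem cells (MSCs) kept in hypoxia for 24 h, H+G-Exo from MSCs kept in hypoxia with GW4869 for 24 h, and N-Exo from MSCs kept in normoxia for 24 h. GW4869 inhibits neutral sphingomyelinase, an enzyme that takes part in exosome formation. In all 3 groups the MSCs were primary cells from the marrow of male wild type C57BL/6 mice aged 4 to 6 weeks, used at passages 3 to 6 and grown with 10% fetal bovine serum, which can carry vesicles of its own. Each preparation came from the medium of 10 dishes, passed a 0.2 µm filter and was pelleted by ultracentrifugation. The design text speaks of 3 samples for every kind of exosome, while 1 array of each was analysed here. Whether RNA of several cultures was pooled, the oxygen level and the dose of GW4869 are not given in the sources used here.

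A miRNA is cut from a hairpin precursor whose 2 arms (5p and 3p) can each be loaded into an Argonaute protein, and it pairs with messenger RNAs mainly through its seed, bases 2 to 8. miR-140 is known for its abundance in cartilage, where its hairpin lies in the Wwp2 gene and mice without it have shortened bones. The miR-196 hairpins lie in the Hox clusters and are known to target Hoxb8 and other Hox messages that pattern the skeleton. miR-204 and miR-211 are known to target Runx2, the transcription factor that starts bone formation, and miR-31 is known to restrain osteogenic differentiation of MSCs.

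The mature sequences are shown because the members share seeds in pairs and because miR-211-3p has an unusual run of G. RefSeq (GRCm38.p6) held 8 of the 9 members, printed 5′ to 3′ with the seed in capitals.
miR-140-3p: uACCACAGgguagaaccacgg
miR-196a-5p: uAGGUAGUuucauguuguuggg
miR-196b-5p: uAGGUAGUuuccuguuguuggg
miR-204-5p: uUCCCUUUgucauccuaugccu
miR-211-5p: uUCCCUUUgucauccuuugccu
miR-211-3p: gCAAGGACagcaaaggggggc
miR-31-5p: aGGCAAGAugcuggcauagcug
miR-31-3p: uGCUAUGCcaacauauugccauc
miR-196a-5p and miR-196b-5p share a seed and differ at 1 of 22 bases (A12C, the base of miR-196a-5p first and positions counted from 1 at the 5′ end). miR-204-5p and miR-211-5p also share a seed and differ at 1 of 22 bases (A17U, the base of miR-204-5p first). The 3p arms of miR-140, miR-211 and miR-31 and the 5p arm of miR-31 each have a seed of their own among these 8.

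In GRCm38.p6, miR-140-3p lies at chr8:107551288-107551308 on the plus strand, within Wwp2. miR-196a-5p lies at chr11:96265187-96265208 on the plus strand, within the gene model Gm51876 and with its hairpin 6065 bases before Hoxb9, and again at chr15:102973365-102973386 on the plus strand, between Hoxc10 and Hoxc9. miR-196b-5p lies at chr6:52230129-52230150 on the minus strand, within the gene model Gm52902 between Hoxa9 and Hoxa10. miR-204-5p lies at chr19:22750610-22750631 on the plus strand within Trpm3, and miR-211-5p at chr7:64205831-64205852 with miR-211-3p at chr7:64205868-64205888, both on the plus strand within Trpm1. Both Trpm genes encode cation channels. miR-31-5p lies at chr4:88910614-88910635 and miR-31-3p at chr4:88910577-88910599, both on the minus strand within the gene model Gm49890. Whether these positions are exonic or intronic was not determined here.

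The signal of a probe is the mean over its spots after background subtraction by the scanner software. To scale it, that mean was divided by the 75th percentile of signal on its own array, taken over those probes that all 3 arrays detected. This percentile was 468.9 intensity units in H+G-Exo, 235.0 in H-Exo and 417.3 in N-Exo. Of the labelling spike-ins, RNAs added in a known amount, dmr_285 read 1995 in H+G-Exo, 1356 in H-Exo and 2316 in N-Exo, and dmr_31a read 1627, 1530.2 and 1744 in the same order. The hybridization spike-in dmr_6 read 2242 in H+G-Exo, 2100.2 in H-Exo and 2084 in N-Exo. miRNAs detected numbered 675 in H+G-Exo, 586 in H-Exo and 685 in N-Exo. Of 9 miRNAs known from stromal cells, 9, 8 and 9 were detected in H+G-Exo, H-Exo and N-Exo. Of 6 blood cell markers, miR-451a and miR-223-3p were detected on every array, with summed scaled signals of the list of 0.117, 0.314 and 0.248, and 0 of 2 endothelial, 0 of 7 epithelial and 0 of 1 liver markers were detected. Of 5 muscle and heart markers, 2, 1 and 2 were detected, and of 3 neuronal markers 0, 0 and 1. Values are given ± the SD over replicate spots, an error of the array itself and not of the cells. Since a group is 1 array, the comparisons have no replicates, no test and no p-value. A lower unscaled signal can come from fewer vesicles, from less of the miRNA per vesicle or from weaker labelling, since the labelling spike-ins also differed between arrays. These cannot be told apart here. A lower scaled signal is relative to the other detected probes of the same array.

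Of the 9 members, 7 were detected on all 3 arrays and 2, miR-204-5p and miR-211-5p, on none, while of all 1881 miRNAs 562 were detected on all 3 and 1127 on none. No member was detected on some arrays and missed on others.

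Both arms of miR-140 were detected. miR-140-5p had a scaled signal of 0.203 ± 0.013 in H+G-Exo, 0.483 ± 0.038 in H-Exo and 1.31 ± 0.065 in N-Exo, over 15, 15 and 14 spots. The unscaled signal of the same probe was 95.1 ± 6.24 intensity units in H+G-Exo, 113 ± 8.85 in H-Exo and 546 ± 27.3 in N-Exo. N-Exo was the highest on either scale. miR-140-3p, the other arm, had a scaled signal of 0.422 ± 0.022 in H+G-Exo, 0.550 ± 0.035 in H-Exo and 1.40 ± 0.034 in N-Exo, over 15 spots each. Its unscaled signal was 198 ± 10.2 in H+G-Exo, 129 ± 8.14 in H-Exo and 584 ± 14.1 in N-Exo. N-Exo was again the highest, and the order of H+G-Exo and H-Exo for miR-140-3p depended on the scale: H+G-Exo was the higher of them before scaling and the lower after it.

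The Hox-cluster miRNAs miR-196a-5p and miR-196b-5p had the same order of groups. miR-196a-5p had a scaled signal of 1.61 ± 0.078 in H+G-Exo, 3.30 ± 0.150 in H-Exo and 9.01 ± 0.346 in N-Exo, over 7 spots each. Its unscaled signals of 754 ± 36.4 in H+G-Exo and 775 ± 35.1 in H-Exo overlapped within their SD over spots, and N-Exo read 3762 ± 145. The lower H+G-Exo value after scaling was therefore not present in the unscaled signal of miR-196a-5p. miR-196b-5p had a scaled signal of 0.30 ± 0.017 in H+G-Exo, 0.697 ± 0.044 in H-Exo and 1.83 ± 0.119 in N-Exo, and unscaled signals of 141 ± 7.92, 164 ± 10.4 and 762 ± 49.7 in the same order. Each of the 4 probes of miR-196a-5p and both probes of miR-196b-5p were highest in N-Exo. Since the mature sequences differ at 1 base, signal shared between their probes was not tested, and their separate values are uncertain to that extent.

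miR-31-5p, the arm with the better known role in osteogenic cells, had a scaled signal of 0.918 ± 0.086 in H+G-Exo, 2.02 ± 0.153 in H-Exo and 3.66 ± 0.239 in N-Exo, over 15, 14 and 14 spots. Its unscaled signals of 430.4 ± 40.3 in H+G-Exo and 474 ± 36.1 in H-Exo overlapped within their SD, against 1527 ± 99.9 in N-Exo. miR-31-3p was close to background in H+G-Exo, with a scaled signal of 0.060 ± 0.006 there, 0.146 ± 0.025 in H-Exo and 0.358 ± 0.017 in N-Exo. The H+G-Exo value lay under the floor of 0.0653, set where the least sensitive array stopped detecting probes, and was raised to it before fold changes were taken. The second miR-31-3p probe was not well above background in H+G-Exo, at an unscaled 14.6, against 19.96 in H-Exo and 83.2 in N-Exo. Both arms of miR-31 were thus highest in N-Exo.

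The pair miR-204 and miR-211 differed from the other members. The probes of miR-204-5p read between -0.35 and 1.89 unscaled intensity units and the 4 probes of miR-211-5p between -0.47 and 3.68, with 0% of their spots well above background on any array. No level and no fold is given for either 5p arm. miR-211-3p, the opposite arm of the miR-211 hairpin, had a scaled signal of 27.7 ± 0.604 in H+G-Exo, 52.9 ± 0.749 in H-Exo and 40.2 ± 1.69 in N-Exo, over 15, 14 and 15 spots. Unscaled, it read 13011 ± 283 in H+G-Exo, 12430.2 ± 176 in H-Exo and 16775 ± 707 in N-Exo. The highest array for miR-211-3p was H-Exo after scaling and N-Exo before it.

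The other arms of these hairpins were read as a check on the pairs. miR-204-3p was detected in H+G-Exo only, at a scaled signal of 0.064 ± 0.015, against 0.041 ± 0.022 in H-Exo and 0.035 ± 0.012 in N-Exo, where it was not well above background. Its H+G-Exo value lay under the floor of 0.0653, so no fold is given. On every array miR-196a-1-3p, miR-196a-2-3p and miR-196b-3p failed to exceed background.

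**Figure D1:**
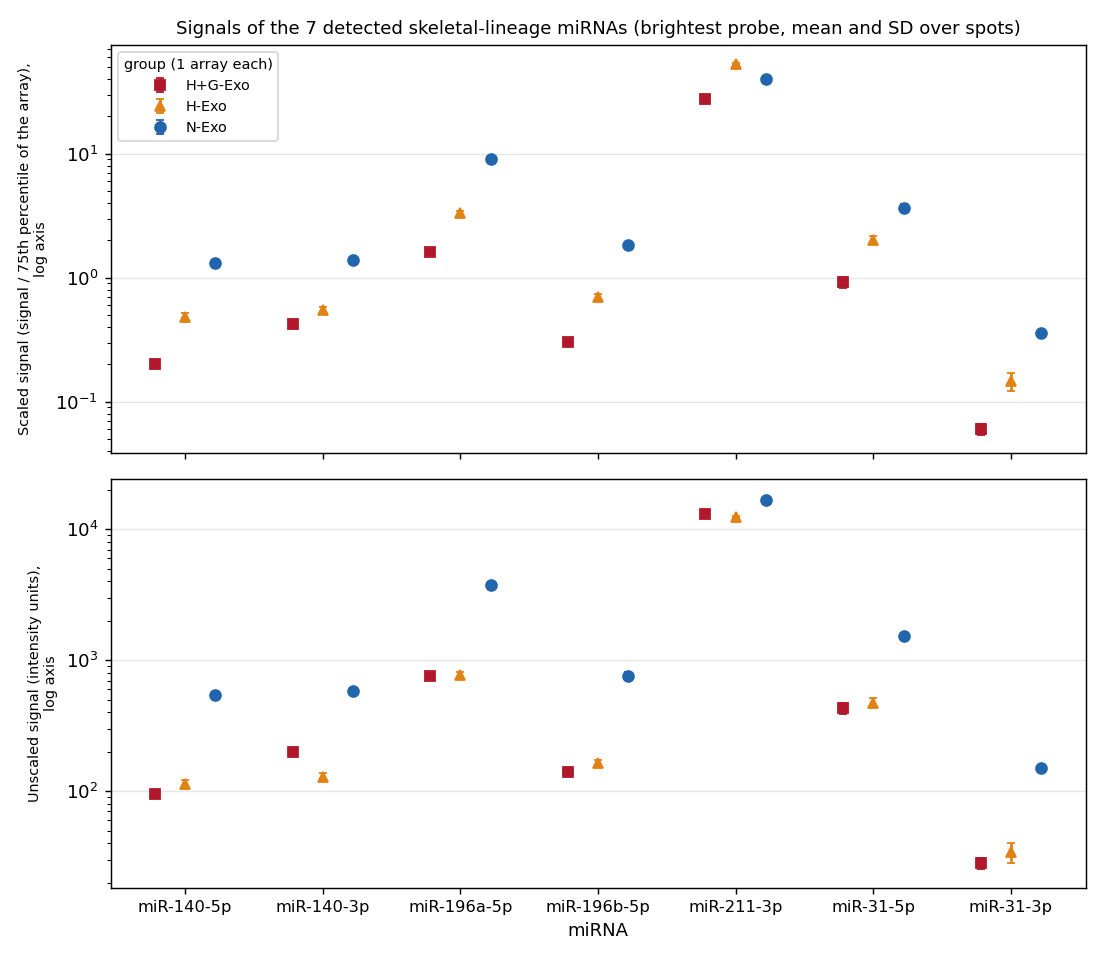
Scaled signals (upper panel, in units of each array's 75th percentile) and unscaled signals (lower panel, intensity units) of the 7 detected miRNAs, both on log axes, for H+G-Exo, H-Exo and N-Exo. Points are means and bars SDs over the spots of the brightest probe. N-Exo is the highest point for 6 miRNAs in both panels, and the gap between H-Exo and H+G-Exo in the upper panel is small or turned in the lower one.

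The comparison of H-Exo with N-Exo sets hypoxia against normoxia. With 1 array each, an effect of hypoxia cannot be told apart from a difference between preparations or arrays. Both miR-140 arms, both miR-196 members and miR-31-3p were lower in H-Exo. A miRNA was called lower or higher where it was detected on both arrays and its scaled signals differed at least 2-fold and by over 2 standard errors of its spots. By that rule 5 of the 7 measured members were lower in H-Exo and 0 were higher, while among all 582 measured miRNAs 10.7% were lower and 4.3% higher. miR-196a-5p was 2.73-fold lower, miR-140-5p 2.71-fold, miR-196b-5p 2.62-fold, miR-140-3p 2.55-fold and miR-31-3p 2.46-fold. miR-31-5p was not called, at 1.81-fold lower. The log2 differences of these 6 members (H-Exo minus N-Exo) lay between -1.45 and -0.86, at percentiles 3.95 to 13.2 of all measured miRNAs, whose median was 0.34. Before scaling they were 3.22-fold to 4.86-fold lower in H-Exo, and all 6 were below 0 under each of 7 scalings. The labelling spike-ins given above were dimmer in H-Exo as well, dmr_285 by more than dmr_31a, and the summed scaled signal of the 9 stromal markers was 129 in H-Exo against 296 in N-Exo. Of that sum miR-21a-5p alone made 81.0 in H-Exo and 190 in N-Exo. Some of the markers, miR-21a-5p among them, are also in the skeletal-lineage lists below. The part of the spike-ins and the markers in the result was not tested.

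miR-211-3p was not called in H-Exo against N-Exo, at 1.32-fold higher (log2 difference 0.40 ± 0.06 over spots), close to the median of all miRNAs at percentile 56.7. Its difference ranged from -0.45 to 0.40 over the 7 scalings. It was below 0 with no scaling and with the hybridization spike-ins and above 0 with the other 5, so its direction is not settled.

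H+G-Exo was set against H-Exo to compare hypoxia with and without GW4869, again with 1 array each, so an effect of GW4869 cannot be told apart from a difference between preparations or arrays. After scaling, 5 of the 7 measured members were lower in H+G-Exo and 0 were higher, against 26.1% lower and 6.18% higher among all 566 measured miRNAs. miR-140-5p was 2.38-fold lower, miR-196b-5p 2.32-fold, miR-31-3p 2.23-fold, miR-31-5p 2.20-fold and miR-196a-5p 2.05-fold. Without raising its H+G-Exo value, miR-31-3p was 2.43-fold lower. miR-211-3p, at 1.91-fold lower, and miR-140-3p, at 1.30-fold lower, were not called. These calls rested on the scaling: the unscaled ratio of H+G-Exo to H-Exo lay between 0.821 and 1.53 over the 6 members other than miR-211-3p and was 1.05 for miR-211-3p. With no scaling, 0 of the 7 members were called. With the median, the 75th percentile over all probes or either kind of spike-in as the scale the count was also 0, and with quantile normalization it was 1. The median log2 difference of all miRNAs was -0.42 under the scaling used and 0.57 with none.

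miR-140-3p had no settled direction between H+G-Exo and H-Exo, with log2 differences from -0.38 to 0.61 and 3 of the 7 scalings below 0. miR-211-3p ranged from -0.93 to 0.07 and was below 0 under 6 of them, the exception being no scaling. The other 5 detected members were below 0 under all 7, with their smallest differences lying between -0.28 for miR-31-3p and -0.04 for miR-196a-5p.

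H+G-Exo was also set against N-Exo, with arrays that both earlier comparisons use, so the 3 sets of values are not independent. Here 6 of the 7 measured members were lower in H+G-Exo and 0 were higher, while 26.1% of all 606 measured miRNAs were lower and 18.3% higher. miR-140-5p was 6.46-fold lower, miR-196b-5p 6.08-fold, miR-196a-5p 5.61-fold, miR-31-3p 5.49-fold (5.97-fold without raising its H+G-Exo value), miR-31-5p 3.99-fold and miR-140-3p 3.32-fold. Their log2 differences of -2.69 to -1.73 lay at percentiles 3.47 to 14.2, with a median over all miRNAs of -0.05. Before scaling the same 6 were 2.95-fold to 5.75-fold lower, and under each of the 7 scalings they stayed below -1.40. The summed scaled signal of the 9 stromal markers was 51.3 in H+G-Exo against 296 in N-Exo, of which miR-21a-5p made 29.7 and 190. The part of that sum in the result was not tested. miR-211-3p was not called, at 1.45-fold lower, and its log2 difference was between -0.53 and -0.21 over the 7 scalings.

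**Figure D2:**
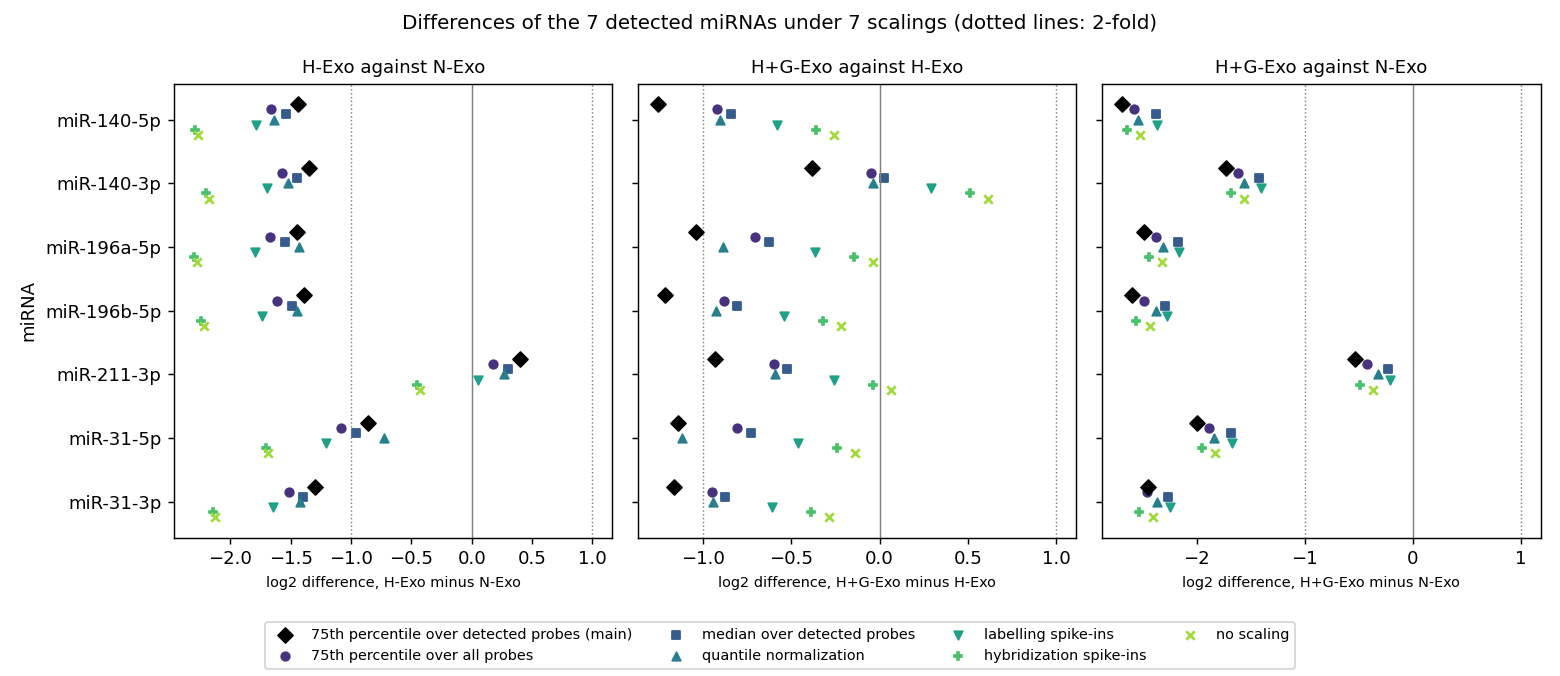
Log2 differences of the 7 detected miRNAs under 7 scalings, 1 symbol per scaling, in 3 panels for H-Exo minus N-Exo, H+G-Exo minus H-Exo and H+G-Exo minus N-Exo. Dotted lines mark 2-fold. The 6 members other than miR-211-3p lie left of 0 under every scaling in the panels against N-Exo, while in H+G-Exo minus H-Exo they spread from -1.25 to 0.61.

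The probes of a member mostly gave similar differences. In H-Exo minus N-Exo, the probes of miR-140-5p gave log2 differences of -1.49 and -1.44, those of miR-140-3p -1.35 and -1.23, those of miR-196b-5p -1.47 and -1.39, those of miR-31-5p -0.86 and -0.86, those of miR-31-3p -1.30 and -1.23, and the 4 of miR-196a-5p -1.60 to -1.42. The miR-211-3p probes gave 0.36 and 0.40. In H+G-Exo minus H-Exo the 4 miR-196a-5p probes ran from -1.07 to -0.86, so that 1 of them fell short of 2-fold, and the miR-196b-5p probes gave -1.21 and -1.0. The probes of 1 member overlap in sequence, so this is agreement of spots on 1 array and not of samples.

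The arms of a hairpin were compared through their differences between groups, which no scaling by a single factor can move. The arms of miR-140 moved together in H-Exo against N-Exo, where the log2 difference of the 3p arm minus that of the 5p arm was 0.09 ± 0.17 over spots. In H+G-Exo against H-Exo the log2 difference of the 5p arm was the lower, by 0.87 ± 0.19, a 1.83-fold unequal change. All 4 pairs of probes gave it within 0.87 to 0.91. Before scaling the 3p arm was higher in H+G-Exo, at 0.61, and the 5p arm lower, at -0.25, so a fall of both arms depended on the scaling. Between H+G-Exo and N-Exo the arms differed by 0.96 ± 0.14, or 1.95-fold. Of the 15 settings tried, the single-factor scalings and the changed call rules could not move this gap. With background correction, quantile normalization and other sources of signal included, it lay between 0.58 and 0.93 in H+G-Exo against H-Exo. In H+G-Exo against N-Exo it lay between 0.61 and 1.1. Such gaps were common on these arrays: 44.2% of the 52 hairpins with both arms measured in H+G-Exo and H-Exo had a gap at least as large, with a median size of 0.68, and 55.6% of 63 did in H+G-Exo and N-Exo, with a median of 0.99. The inequality of the miR-140 arms therefore lay within the usual range of arm pairs here.

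The miR-31 arms were read in the same way. Without raising low values, the 3p arm minus the 5p arm was -0.44 ± 0.29 for H-Exo against N-Exo. It was -0.14 ± 0.33 for H+G-Exo against H-Exo, then -0.58 ± 0.23 for H+G-Exo against N-Exo. With low values raised to the floor, the scaling used gave -0.44, -0.02 and -0.46 in the same order. Those raised values entered the ranges over the 15 settings, and were repeated where only the call rule changed. The ranges were -0.70 to 0.45, -0.21 to 0.66 and -0.67 to 1.1. The sign was positive under 1 of the 15 settings, normexp, in both comparisons with N-Exo, and under 4 of the 15 between H+G-Exo and H-Exo. miR-196a-5p and miR-196b-5p differed by -0.06 ± 0.16, 0.18 ± 0.16 and 0.12 ± 0.15 in the same comparisons, about the size of the spread over spots.

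Because miR-211-3p was detected without its 5p arm, the hairpin is shown (chr7:64205806-64205911, plus strand, GRCm38.p6), with the 5p and then the 3p arm in capitals.
Mir211: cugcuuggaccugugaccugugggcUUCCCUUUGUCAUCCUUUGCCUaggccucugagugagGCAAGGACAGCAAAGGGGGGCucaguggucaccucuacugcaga
The miR-211-3p probes are short and cover the 3′ end of the miRNA, with a run of C (capitals) opposite the run of G.
shorter probe: gCCCCCCtttgc
longer probe: gCCCCCCtttgct
The shorter has 12 bases with 75% G and C and the longer 13 bases with 69.2%. The run GGGGGG, searched on the miRNA strand only, was found in 4 of the 1608 miRNAs on the array with a RefSeq sequence (0.249%) and in 3 of the 486 of these detected on all 3 arrays. The run GGGG, which also counts those 4, was found in 182 of 1608 (11.3%) and in 115 of the 486 detected (23.7%). For these 115 miRNAs the median log2 difference was 0.47 in H-Exo against N-Exo, beside 0.40 for miR-211-3p, and -0.01 in H+G-Exo against H-Exo, beside -0.93. The longest stretch of the 13-base target found in any of 1607 other mature miRNAs was 10 bases, in miR-6370, whose scaled signal was 0.349 in H+G-Exo, 0.301 in H-Exo and 0.172 in N-Exo. Whether another RNA in the samples binds these probes was not tested.

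Probe base composition moved with the differences over the whole array. In H-Exo minus N-Exo the median log2 difference was -0.73 for 114 miRNAs whose probe had under 50% G and C, 0.33 for 281 with 50% to under 65%, and 0.45 for 187 with 65% or more. In H+G-Exo minus N-Exo the medians were -1.71, -0.07 and 0.48, and in H+G-Exo minus H-Exo -1.07, -0.45 and -0.04. The brightest probes of miR-196a-5p, miR-31-3p and miR-140-5p had 40.9%, 42.1% and 42.9% G and C, and those of miR-196b-5p, miR-31-5p and miR-140-3p 50%, 52.9% and 60%. The lower members thus include 3 in the class whose median was lowest and 3 in the middle class, while miR-211-3p was in the class of highest GC content. miR-196b-5p lay at the lower edge of the middle class, and its second probe had 47.4% G and C. Within the class of 65% or more G and C, miR-211-3p was lower than most. It lay above 40.1% of that class in H-Exo minus N-Exo, 10.7% in H+G-Exo minus H-Exo and 11.2% in H+G-Exo minus N-Exo. The part of base composition in the members' differences was not tested.

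**Figure D3:**
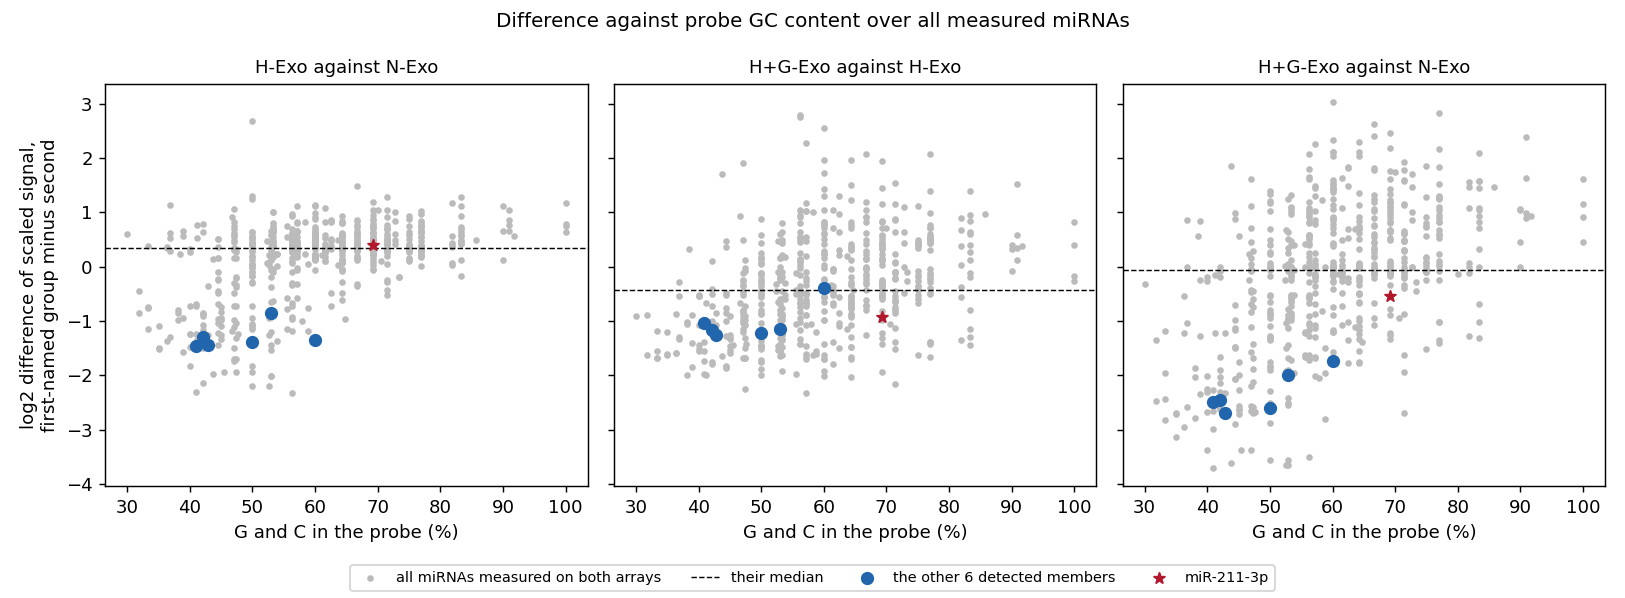
Log2 difference of the scaled signal against the share of G and C in the brightest probe, for all measured miRNAs (grey), the 6 other detected members (blue) and miR-211-3p (red star) in the 3 comparisons, with a dashed line at the median of all. The blue points lie among the lower values at 40.9% to 60% G and C in both panels against N-Exo, and the star lies at 69.2%, near the median line in H-Exo against N-Exo.

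Other miRNAs linked to the skeletal lineage were read in 4 lists of 10, for bone formation, its restraint, cartilage, and fat cell formation or its restraint. In H-Exo against N-Exo, 16 of the 29 measured were lower and 0 higher, beside 10.7% lower and 4.3% higher among all measured miRNAs, with a median log2 difference of -1.05 beside 0.34 over all. Over the 7 scalings the count lower ran from 14 with quantile normalization to 25 with no scaling or the hybridization spike-ins. The list linked to fat cells had 7 of 8 lower, with miR-143-3p at 0.218 ± 0.017 in H-Exo against 0.999 ± 0.053 in N-Exo, 4.58-fold lower. The bone formation list had 3 of 8 lower, among them miR-29c-3p, a regulator of collagen messages, at 0.313 ± 0.031 in H-Exo against 0.806 ± 0.034 in N-Exo. Of the miRNAs described as restraining bone formation 3 of 7 were lower, miR-26a-5p by 3.93-fold and miR-30c-5p by 3.57-fold. Of the cartilage list 3 of 6 were lower, miR-322-5p by 4.97-fold and miR-199a-5p by 3.25-fold. Lists of opposite described action were thus lower side by side.

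In H+G-Exo against H-Exo, 21 of the 29 measured were lower and 0 higher under the scaling used, beside 26.1% lower and 6.18% higher among all, with a median of -1.29 beside -0.42 over all miRNAs. As for the members, these calls rested on the scaling: with none, 0 of the 29 were lower and 2 higher, and with the labelling spike-ins 3 were lower and 2 higher. Quantile normalization left 16 lower and 0 higher. Under the scaling used miR-29b-3p was 3.98-fold lower, at 0.996 ± 0.026 in H+G-Exo against 3.96 ± 0.060 in H-Exo, and miR-103-3p was 3.62-fold lower. Of the lists in H+G-Exo against N-Exo, 26 of 33 were lower and 1 higher, beside 26.1% and 18.3% among all. The higher one was miR-2861, with a log2 difference of 1.61, and the median was -2.19 beside -0.05. miR-322-5p was 13.0-fold lower, at 0.318 ± 0.020 in H+G-Exo against 4.15 ± 0.154 in N-Exo, and miR-26a-5p was 12.3-fold lower. The median over the 7 measured members was -1.35, -1.14 and -2.46 in the 3 comparisons, near those of the lists.

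**Figure D4:**
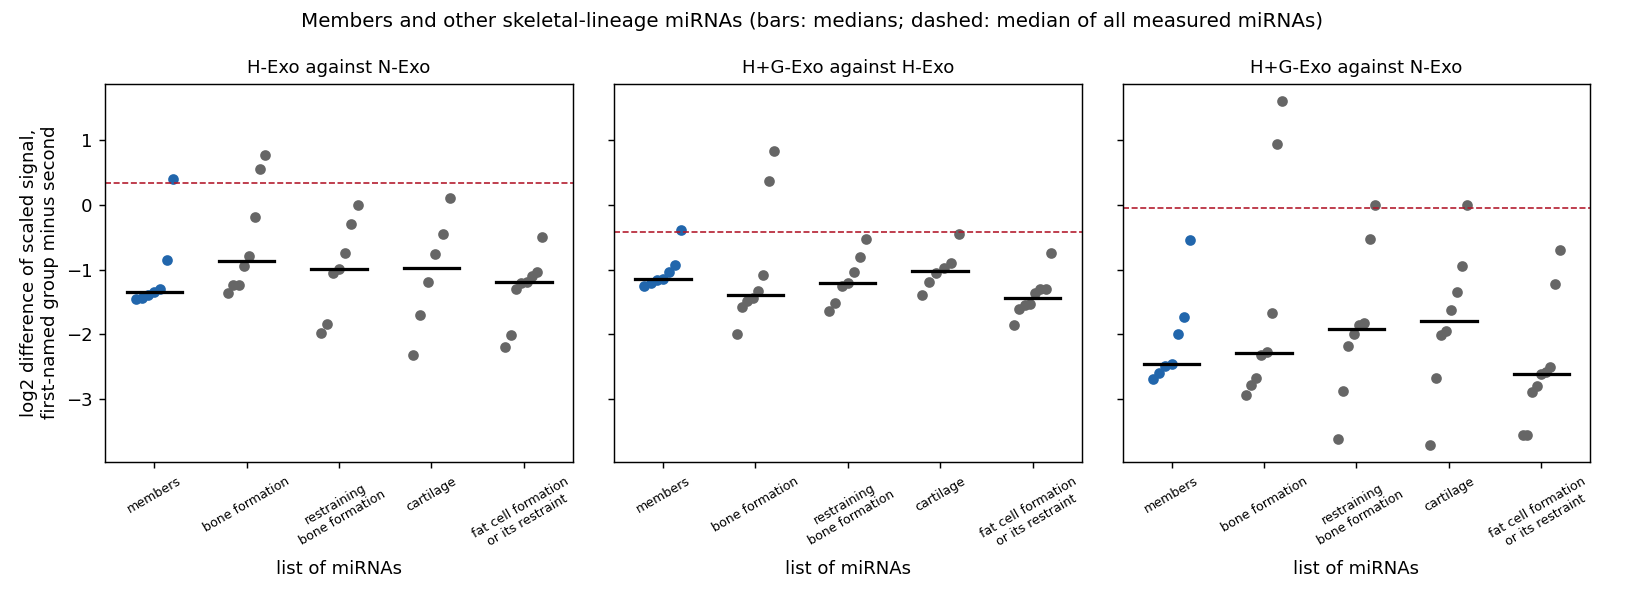
Log2 differences of the scaled signal for the 7 measured members and for the measured miRNAs of the 4 skeletal-lineage lists in the 3 comparisons, 1 point per miRNA, with bars at list medians and a dashed line at the median of all measured miRNAs. List medians lie below the dashed line in every panel, and the member nearest that line in H-Exo against N-Exo is miR-211-3p, at 0.40.

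The 3 miRNAs most like each member were taken as those with the smallest Euclidean distance between log2 scaled signals centred over the 3 arrays, among the 562 miRNAs detected on all of them. For miR-140-5p these were miR-26b-5p at a distance of 0.044, the member miR-196b-5p at 0.061 and miR-30b-5p at 0.070. miR-140-3p was nearest to miR-455-3p at 0.117, then to miR-1839-5p at 0.125 and miR-146b-5p at 0.130. Its other arm was not among these 3. miR-196a-5p was nearest to miR-361-5p at 0.050, miR-31-3p at 0.116 and miR-193a-3p at 0.117, and miR-196b-5p to miR-140-5p at 0.061, miR-362-3p at 0.067 and miR-130a-3p at 0.072. miR-31-5p was nearest to miR-101a-3p, miR-324-5p and miR-301a-3p, at 0.069 to 0.087, and miR-31-3p to let-7i-5p, miR-361-5p and miR-218-5p, at 0.093 to 0.101. The nearest to miR-211-3p were miR-8100 at 0.021, miR-295-5p at 0.034 and miR-7069-3p at 0.041. The signals compared here were those raised to the floor. Some of the miRNAs named lay under it in H+G-Exo before raising. Among them were miR-101a-3p at a scaled signal of 0.046, miR-455-3p at 0.061, miR-218-5p at 0.059 and the member miR-31-3p at 0.060. Their distances and ranks depend in part on the floor, and likeness without it was not tested. With 3 points per miRNA such likeness is a description of these arrays.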

How the data were processed

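Per the file headers, the authors scanned 3 one-colour arrays, all on 1 slide with 1 scan time, and the deposited files hold background-subtracted intensity per spot, without scaling between arrays. The submitters' processing notes name Agilent Feature Extraction 10.7.1.1. The deposited value table was read as log2 values and used as an alternative, and the sources used here do not give how it was normalized. The labels' protocols name a kit that amplifies cRNA, so how the hybridized RNA was labelled is uncertain.

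Control and outlier-flagged spots were left out (14, 9 and 12 of 270 member spots in H+G-Exo, H-Exo and N-Exo), and 0 miRNA spots were saturated. Detection of a probe required the software's flag for signal well above background on over 50% of its spots. Spot means were scaled by the 75th percentile, raised to the floor of 0.0653 and put on a log2 scale, and a miRNA took its brightest probe. The 3 comparisons were read by the 2-fold rule, without a test, and 14 alternatives were run. The number of arrays limits the precision. Members and lists were chosen with earlier results of these data known. The text names all members, the other arms of their hairpins, the 3 nearest miRNAs per member and up to 2 called miRNAs per list and comparison. miR-2861 and miR-3960 were named after their values were seen. Scripts used Python 3.11.15, pandas 2.3.3, numpy 2.4.6, matplotlib 3.10.9, R 4.3.3 and limma 3.58.1, the last for normexp (offset 50), and were tested on simulated data.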

Additional observations from a re-analysis of the deposited data

How the results depend on the processing

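In H+G-Exo against H-Exo, the count of members lower was 5 as reported. It was 0 with the median over detected probes, a 75th percentile taken over all probes, no scaling, the labelling spike-ins, the hybridization spike-ins or the normexp background correction. It was 1 with quantile normalization, the software's total per miRNA or the deposited value table, and 3 where all spots of a probe had to be above background. With the mean of detected probes it was 4, with outlier spots kept or without the rule on spots 5, and with a 1.5-fold rule 6. Over all miRNAs in that comparison, 35 were higher and 148 lower as reported, so 19.1% of calls were higher. That share was 96.4% with no scaling (185 higher, 7 lower), 91.5% with the hybridization spike-ins, 78.9% with the labelling spike-ins, 48.5% with the median, 41.9% with a 75th percentile over all probes, 38.9% with quantile normalization or the software's total and 35.8% with the deposited value table. In H-Exo against N-Exo, members lower numbered 4 to 6 over the alternatives, and of all calls 28.7% were higher as reported, 57.6% with a 1.5-fold rule, 39.8% with the deposited value table, 22.4% with quantile normalization, 17.9% where all spots had to be above background, 16.7% with the median, 6.74% with a 75th percentile over all probes, 6.67% with normexp, 1.98% with the labelling spike-ins, 0.741% with no scaling (1 higher, 134 lower) and 0.730% with the hybridization spike-ins. In H+G-Exo against N-Exo, members lower numbered 5 to 6, and the share higher was 41.3% as reported and 58.7% with the labelling spike-ins, 57.0% with the median and 54.9% with the deposited value table. The 4 skeletal-lineage lists together were recounted under the 6 other scalings, a choice made after seeing the data. For H+G-Exo against H-Exo their count lower was 21 as reported, 13 with a 75th percentile over all probes and 11 with the median, 3 with the labelling spike-ins, 1 with the hybridization spike-ins and 0 with no scaling, and their count higher was 0 as reported, 1 with the first 2 of these and 2 with the other 3. Quantile normalization gave 16 lower and 0 higher in that comparison. For H-Exo against N-Exo, 16 were lower as reported, 14 with quantile normalization and 25 with no scaling or the hybridization spike-ins. For H+G-Exo against N-Exo, 1 was higher as reported and with the hybridization spike-ins, and 2 under the other 5. Members higher numbered 0 in every comparison and alternative. With normexp, which pulls dim probes together, miR-31-3p had log2 differences of -0.42, -0.29 and -0.71 in H-Exo against N-Exo, H+G-Exo against H-Exo and H+G-Exo against N-Exo. Of the member differences recomputed, 153 moved by more than the spread over spots, 141 did not and 0 of those called turned sign. The 141 include every difference under the 1.5-fold rule and the 2-fold rule without spots. Those alternatives change only the calls and could not move a difference. Slide and scan as a block could not be run, since all 3 arrays share both. No paired analysis was possible because each group has 1 array, and for the same reason no array could be left out. The cause of these shifts was not tested. Signals near background, such as those of miR-31-3p and miR-204-3p, carry the least certain values.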
